A study of Mus musculus with 18 samples.

Results

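Small RNAs of mouse cerebellum were sequenced in a cross of 2 mutations, so that each mutation can be read with and without the other. The question is whether the double mutant carries the sum of both single effects. All 12 cerebellum libraries of the series, of 18 in all, form this design. They comprise 3 biological replicates each of CyrKOCdr1as671 mice, which carry both mutations, of CyrKO mice, which lack the long noncoding RNA Cyrano, of Cdr1as671 mice, whose circular RNA Cdr1as has lost its miR-671 site through an 18 nt deletion, and of wild-type (WT) mice. All were males aged 1 month on the C57BL/6J strain. The 6 hippocampus libraries hold no Cdr1as671 animals and did not enter. The sources used here do not give the design of the Cyrano deletion, the cells in which each mutation acts or the number of animals per library. As neither Cyrano nor Cdr1as RNA was measured, the genotypes could not be checked.

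MicroRNAs (miRNAs) are small RNAs that, held by Argonaute proteins, pair with messenger RNAs through their seed, bases 2 to 8, and lower their output. Each comes from a hairpin whose arms give a 5p and a 3p strand, and usually a guide strand is kept while the passenger strand is discarded. Cyrano holds a site with extended pairing to miR-7, and such pairing is known to direct the degradation of the miRNA. Cdr1as is a circular RNA of the brain with many miR-7 sites and a site almost fully complementary to miR-671-5p, at which it can be cut.

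The sequences of the miRNAs on which the results turn are shown first, since the seeds of miR-7 and miR-671-5p are near to each other. They are RefSeq mature sequences on GRCm38.p6, and capitals mark the seed.
miR-671-5p: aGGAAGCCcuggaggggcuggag
miR-7a-5p: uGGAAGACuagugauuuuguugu
miR-7b-5p: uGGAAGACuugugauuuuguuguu
miR-671-3p: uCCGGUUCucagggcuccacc
miR-7a-1-3p: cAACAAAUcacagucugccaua
miR-7b-3p: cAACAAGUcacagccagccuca
miR-409-3p: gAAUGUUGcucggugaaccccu
miR-411-3p: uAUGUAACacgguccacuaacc
miR-379-3p: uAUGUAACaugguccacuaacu

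The guides miR-7a-5p and miR-7b-5p share their seed and differ at A10U, counted from the 5′ end of miR-7a-5p, so reads could be split between them. Between miR-7a-5p and miR-671-5p the seeds differ at A7C, while 16 of their 23 positions differ. miR-411-3p and miR-379-3p share a seed and differ at 2 positions. The miR-671 hairpin lies at chr5:24592114-24592211 on the plus strand, in an exon of Chpf2 on the same strand, where an exon of Smarcd3 runs on the other strand. miR-7a-5p arises from the hairpin Mir7-1 at chr13:58392779-58392886, in an intron of Hnrnpk, and from Mir7-2 at chr7:78888277-78888373, and miR-7b from chr17:56242988-56243098. The GENCODE annotation of that build places no other gene over the last of these hairpins or over Mir7-2.

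The 12 libraries held 8599697 to 15305829 miRNA reads, and 1042 to 1126 of the 1841 listed miRNAs had a read in a library. Cerebellar origin was checked on 4 listed miRNAs. miR-206-3p had 790 to 1232 CPM (counts of reads scaled to the library total of miRNA reads) in cerebellum and 3.97 to 6.75 CPM in hippocampus. miR-216a-5p had 150 to 273 against 2.59 to 4.77 CPM, and miR-217-5p 107 to 145 against 0.227 to 1.63 CPM. miR-1a-3p did not separate the tissues, at 67.8 to 630 CPM in cerebellum and 149 to 201 CPM in hippocampus. Replicates differed by far more than counting error, with a chi-square per degree of freedom of 40.2 to 534. Cdr1as671 libraries 1 and 2 stood apart from the rest, with scores of 8.42 and 10.1 on the first principal component, against -6.09 to 2.87 in the other 10 libraries. The same 2 libraries were low in the erythroid miRNAs miR-451a, miR-144-3p and miR-144-5p. All 3 members were tested, and they summed to 5405 to 16004 CPM in CyrKOCdr1as671, 16566 to 27991 CPM in CyrKO, 783, 603 and 16205 CPM in Cdr1as671 and 6326 to 32949 CPM in WT libraries. Results are therefore also given without these libraries where that bears on them. In tissue, fewer cells of a type and less RNA per cell cannot be told apart.

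miR-671-5p was the 1 miRNA of 688 tested (0.145%) whose level in the double mutant departed from the sum of the single effects. It had 220, 232 and 231 CPM in the CyrKOCdr1as671 libraries, 242, 217 and 217 CPM in CyrKO, 233, 201 and 223 CPM in Cdr1as671, and 111, 129 and 127 CPM in WT. The 3 mutant groups overlapped one another, and every mutant library lay above every WT library. Group means were 227 ± 6.82 CPM in CyrKOCdr1as671, 225 ± 14.1 CPM in CyrKO, 219 ± 16.7 CPM in Cdr1as671 and 122 ± 9.55 CPM in WT (SD, n = 3 each).

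Each single mutation raised miR-671-5p, and the double mutant did not differ from either single mutant by the test. Loss of Cyrano raised it by 0.90 (SE 0.10, adjusted p = 1.16e-05) in mice with an intact Cdr1as site, by edgeR's quasi-likelihood test with Benjamini-Hochberg adjustment. In mice without the site the same loss changed it by 0.16 (SE 0.10, 95% interval -0.05 to 0.36, adjusted p = 0.647). The site deletion raised it by 0.81 (SE 0.10, adjusted p = 0.000309) where Cyrano was present. Without Cyrano the site deletion changed it by 0.06 (SE 0.10, 95% interval -0.15 to 0.27, adjusted p = 0.748).

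The departure, the effect of the site deletion without Cyrano minus its effect with Cyrano, was -0.75 on the log2 scale for miR-671-5p (SE 0.14, 95% interval -1.04 to -0.45, adjusted p = 0.043). The sum of both single effects placed the double mutant at 404 CPM, against an observed geometric mean of 227 CPM. Adding the single effects in CPM instead placed it at 322 CPM, a departure of -94.997 CPM (SE 14.3). The departure kept its sign over 23 other ways of running the test, at -0.84 to -0.63, and passed the threshold in 9 of them. With all 12 libraries the call was lost with the replicate number as a block (adjusted p = 0.101), with limma-voom (adjusted p = 0.0502), with a minimum mean of 10 CPM (adjusted p = 0.0569) and with an offset on GC content (adjusted p = 0.0797).

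The call on miR-671-5p was also lost when any of the 3 WT, 3 CyrKO or 3 CyrKOCdr1as671 libraries or Cdr1as671 library 1 was left out, with values from -0.82 to -0.63 over all 12 such fits and adjusted p up to 0.301. It was kept without Cdr1as671 library 2 (adjusted p = 0.0192) or 3 (adjusted p = 0.014). Without Cdr1as671 libraries 1 and 2 together the departure was -0.84 (adjusted p = 0.0456), with the remaining library assumed to vary like the other groups. With the erythroid miRNAs as a covariate it was -0.79 (adjusted p = 0.0296). Both called single steps kept their call in all 23 alternatives, CyrKO over WT at 0.83 to 0.92 and Cdr1as671 over WT at 0.74 to 0.93.

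**Figure D1:**
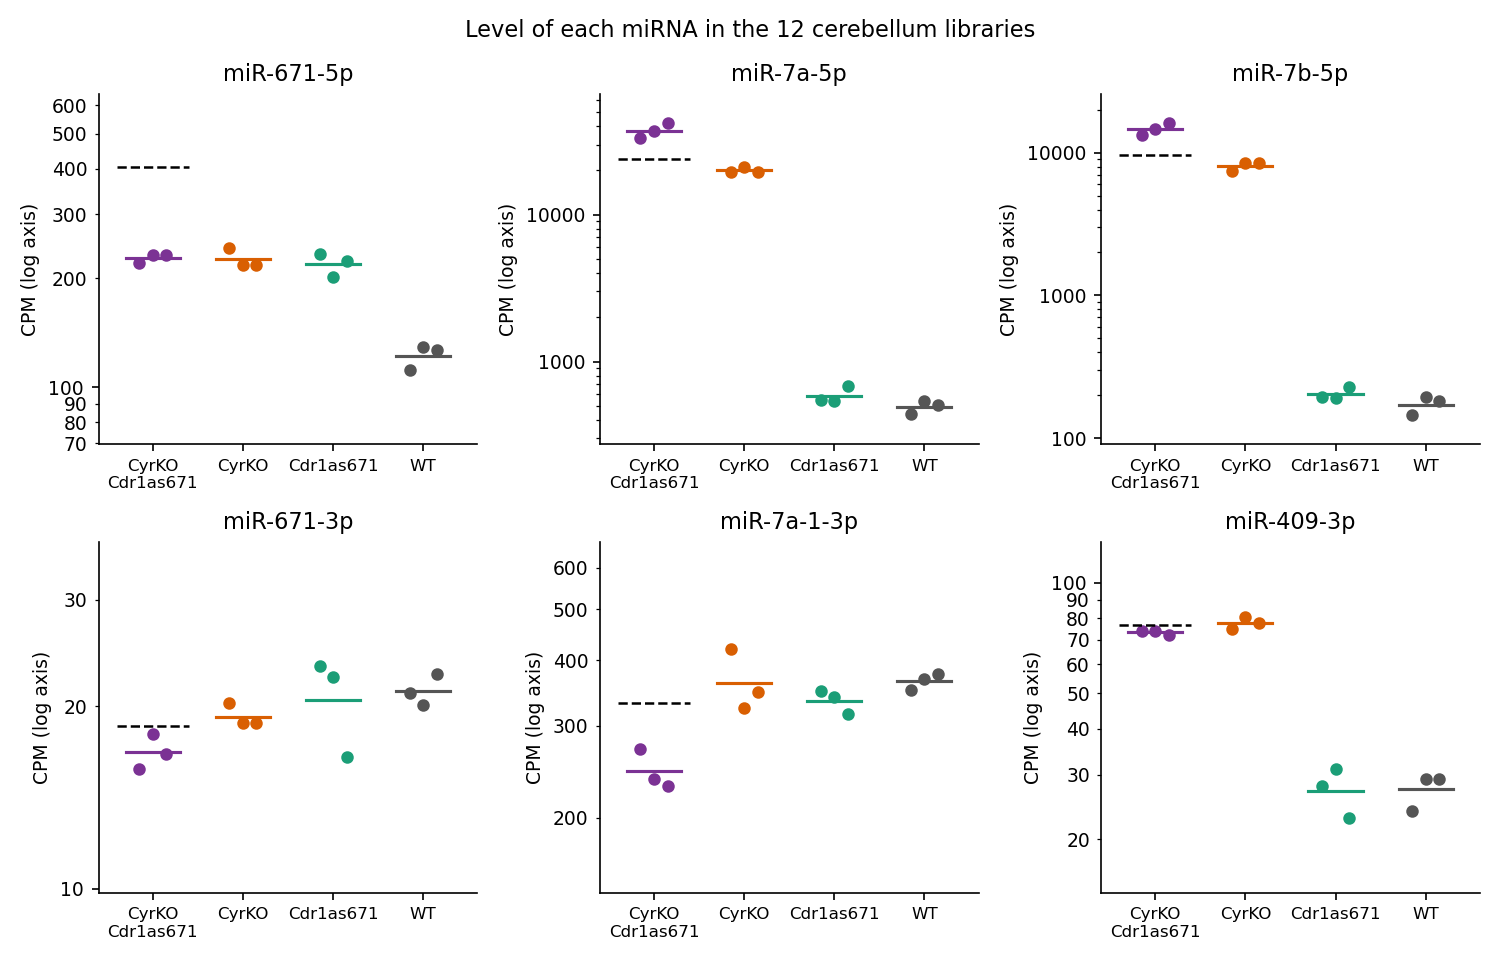
CPM of 6 miRNAs (log axis) in the 12 libraries, grouped as CyrKOCdr1as671, CyrKO, Cdr1as671 and WT. Points are libraries, solid lines geometric means of 3 libraries and the dashed line is the level the double mutant would have under the sum of both single effects on the log scale. For miR-671-5p the double mutant lies under the dashed line (227 against 404 CPM), for miR-7a-5p and miR-7b-5p above it, and for miR-409-3p close to it.

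The partner strand miR-671-3p did not pass the test. It had 15.7, 18.0 and 16.7 CPM in CyrKOCdr1as671, 20.2, 18.8 and 18.8 CPM in CyrKO, 23.4, 22.3 and 16.5 CPM in Cdr1as671, and 21.04, 20.07 and 22.59 CPM in WT libraries. On library totals all CyrKOCdr1as671 libraries lay below all CyrKO and WT libraries, while Cdr1as671 overlapped every group and CyrKO overlapped WT. With the scaling factors of the test, 0.964 for CyrKOCdr1as671 library 2 and 1.01 for CyrKO library 3, CyrKOCdr1as671 and CyrKO overlapped. The step between CyrKOCdr1as671 and CyrKO was -0.15 (adjusted p = 0.519, edgeR). Its departure was -0.07 (SE 0.18, 95% interval -0.45 to 0.31, adjusted p = 0.978), and the sign turned in some alternatives.

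The miR-7 guides lay above the sum of the single effects, but neither departure passed the test (adjusted p = 0.168 each, edgeR). miR-7a-5p had 33323, 36859 and 41716 CPM in CyrKOCdr1as671, 19644, 20987 and 19447 CPM in CyrKO, 544.8, 543.4 and 682.9 CPM in Cdr1as671, and 438.1, 542.0 and 507.3 CPM in WT libraries. On library totals the groups did not overlap, in the order CyrKOCdr1as671, CyrKO, Cdr1as671, WT. The lowest Cdr1as671 library (543.4 CPM) and the highest WT library (542.0 CPM) nearly met. With the scaling factors of the test, 1.08 and 1.04 for these libraries, Cdr1as671 and WT overlapped. The sum of the single effects placed the double mutant at 23783 CPM, against an observed geometric mean of 37142 CPM. In CPM the observed mean lay 17179 CPM above the sum (SE 2481).

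Without Cyrano, the deletion of the Cdr1as site raised miR-7a-5p by 0.95 on the log2 scale (SE 0.12, adjusted p = 0.000389). With Cyrano present the same deletion changed it by 0.22 (95% interval -0.04 to 0.48, adjusted p = 0.293). Loss of Cyrano raised miR-7a-5p in both backgrounds, by 6.08 without the Cdr1as site (SE 0.15, adjusted p = 7.71e-15) and by 5.36 with it (SE 0.14, adjusted p = 3.28e-14). These 3 called steps kept their call in all 23 alternatives. The departure itself was 0.73 (SE 0.17, 95% interval 0.36 to 1.09) and did not pass over all 688 miRNAs (adjusted p = 0.168, edgeR).

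miR-7b-5p, from a separate hairpin, had 13382, 14598 and 16255 CPM in CyrKOCdr1as671, 7473, 8473 and 8460 CPM in CyrKO, 195, 191 and 227 CPM in Cdr1as671, and 145, 193 and 181 CPM in WT libraries. The CyrKOCdr1as671 libraries lay above the CyrKO libraries and both far above the rest, while Cdr1as671 and WT overlapped. Its departure was 0.70 (SE 0.17, 95% interval 0.34 to 1.06, adjusted p = 0.168, edgeR). The site deletion raised it by 0.91 without Cyrano (SE 0.12, adjusted p = 0.000389), while with Cyrano it differed by 0.21 (adjusted p = 0.325).

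Since the guides differ at 1 base, they were also summed, and the sum departed by 0.74 (SE 0.18, adjusted p = 0.18). Both guides together took 5.20 ± 0.57% of miRNA reads in CyrKOCdr1as671, 2.82 ± 0.12% in CyrKO, 0.0795 ± 0.00998% in Cdr1as671 and 0.0669 ± 0.00781% in WT (SD, n = 3 each). Reads of miR-7a-5p were 2.30 to 3.03 times those of miR-7b-5p in every library.

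The size of the miR-7 departure depended on which Cdr1as671 libraries were used. Without Cdr1as671 library 3 it was 0.95 for miR-7a-5p (adjusted p = 0.00609) and 0.89 for miR-7b-5p (adjusted p = 0.00776), both past the threshold. Without libraries 1 and 2 it was 0.45 and 0.49, with adjusted p = 1 each. It stayed above 0 in all 24 alternatives for each guide.

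Base composition moved with that difference between libraries. Among miRNAs of at least 10 CPM with GC content under 35%, 30 in all, the median log2 difference from WT was -0.47 in Cdr1as671 library 1, -0.35 in library 2 and 0.06 in library 3. Among 93 miRNAs of 55% and over it was 0.18, 0.18 and -0.10. The median departure was 0.23 in the low GC class, to which miR-7a-5p (34.8%) and miR-7b-5p (33.3%) belong, and -0.04 in the high class, to which miR-671-5p belongs (69.6%). With a per-library offset on GC content, chosen after seeing the data, from a curve fitted to 348 miRNAs with a mean of at least 10 CPM and applied to the 582 tested miRNAs with a RefSeq sequence, the departure was 0.58 for miR-7a-5p (adjusted p = 0.174), 0.53 for miR-7b-5p (adjusted p = 0.454) and -0.70 for miR-671-5p (adjusted p = 0.0797).

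**Figure D2:**
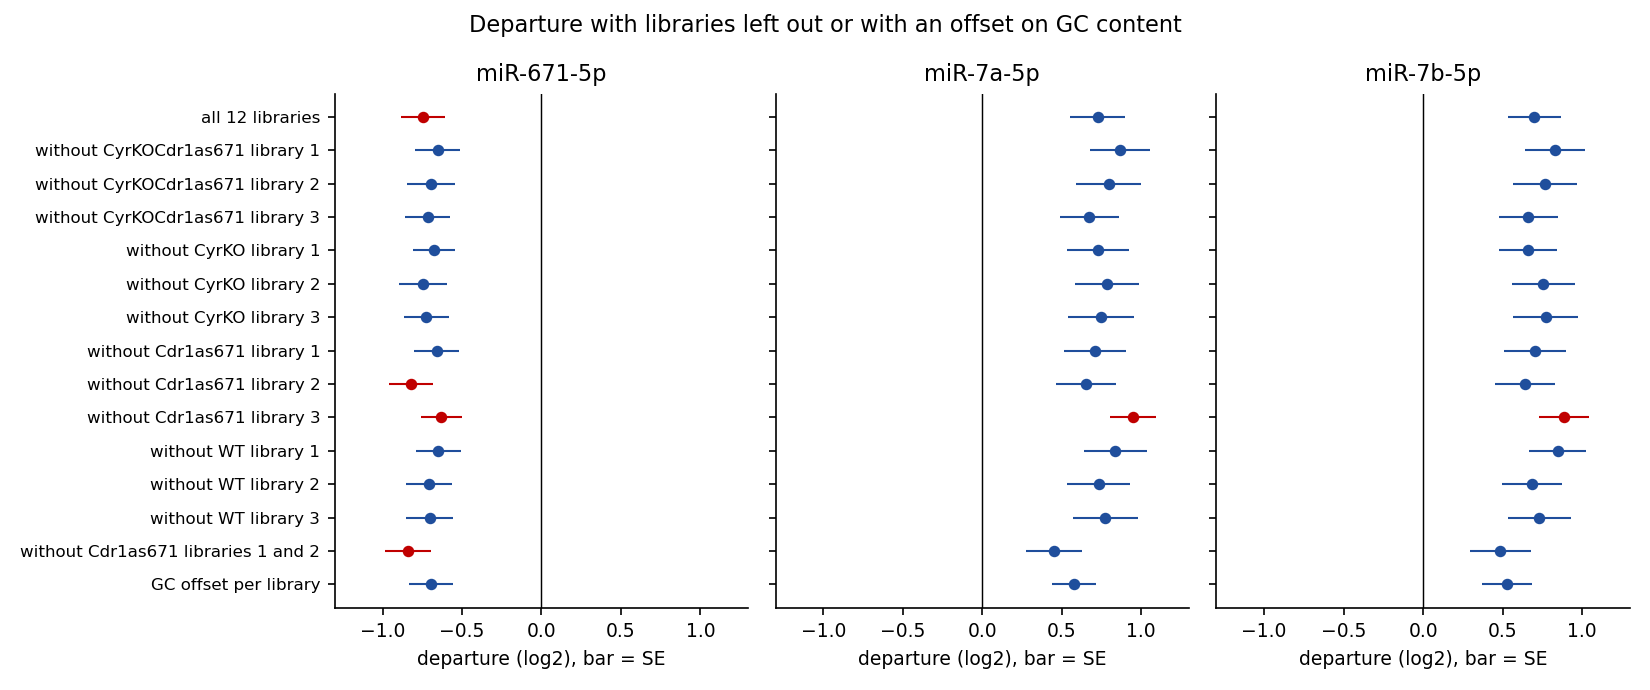
Log2 departure of miR-671-5p, miR-7a-5p and miR-7b-5p (points, with bars of 1 SE) in all 12 libraries, with each library left out, without Cdr1as671 libraries 1 and 2 and with an offset on GC content. Red marks an adjusted p under 0.05. All values for miR-671-5p lie between -0.84 and -0.63, and those for miR-7a-5p range from 0.45 to 0.95.

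None of the miR-7 passenger strands was called higher in any single step. miR-7a-1-3p, the passenger of the Hnrnpk hairpin, had 271, 237 and 230 CPM in CyrKOCdr1as671, 420, 324 and 347 CPM in CyrKO, 349, 340 and 316 CPM in Cdr1as671, and 351.4, 368.7 and 376.4 CPM in WT libraries. Every CyrKOCdr1as671 library lay below every library of the other groups. All Cdr1as671 libraries lay below all WT libraries, and CyrKO overlapped both. It fell by 0.52 in CyrKOCdr1as671 relative to CyrKO (SE 0.10, adjusted p = 0.0104), while Cdr1as671 differed from WT by -0.16 (adjusted p = 0.36). Its departure was -0.35 (SE 0.14, adjusted p = 0.863). The fall was not called when CyrKO library 1 or CyrKOCdr1as671 library 2 or 3 was left out, at adjusted p up to 0.0854.

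The other passengers were scarcer. miR-7b-3p had 11.8, 9.11 and 9.07 CPM in CyrKOCdr1as671 and 14.3 to 17.4 CPM in CyrKO libraries, against 13.9 to 20.8 CPM in Cdr1as671 and 11.4 to 26.2 CPM in WT. The CyrKOCdr1as671 libraries lay below those of CyrKO and Cdr1as671 and overlapped WT. Its departure was -0.69 (SE 0.39, adjusted p = 0.863), with -0.39 without WT library 2, -1.04 without WT library 3 and -0.37 without Cdr1as671 libraries 1 and 2. miR-7a-2-3p stayed at 3.66 to 5.40 CPM in all 12 libraries, with a departure of 0.17 (SE 0.26, adjusted p = 0.939). Of the 3 passengers, none passed the test on the departure, against 0.145% of all 688 miRNAs, and 1 was above 0 and 2 below.

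Ratios of the strands of a hairpin do not depend on the scaling of a library, so the departure was also computed on log2 of 5p over 3p reads. They do not cancel a shift by GC content where the strands differ in it. miR-7b-5p has 33.3% against 54.5% in miR-7b-3p. miR-7a-5p has 34.8% against 40.9% in miR-7a-1-3p and 54.5% in miR-7a-2-3p. The part of GC content in these ratios was not tested. The departures of miR-7a-5p over miR-7a-1-3p, miR-7b-5p over miR-7b-3p and miR-671-5p over miR-671-3p had the 3 lowest p of 224 pairs. On the log2 scale, miR-7a-5p over miR-7a-1-3p was 6.94, 7.28 and 7.50 in CyrKOCdr1as671, 5.55, 6.02 and 5.81 in CyrKO, 0.64, 0.68 and 1.11 in Cdr1as671, and 0.32, 0.56 and 0.43 in WT libraries. The 4 groups did not overlap, in that order. The departure was 1.08 (SE 0.25, 95% interval 0.52 to 1.63, limma adjusted p = 0.285). Since miR-7a-5p also arises from Mir7-2, its ratio over miR-7a-2-3p was computed too, and departed by 0.54 (SE 0.24, 95% interval 0.02 to 1.07, limma adjusted p = 0.899). Over 16 alternatives it ran from 0.23 to 0.70 and was never called.

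On the log2 scale, miR-671-5p over miR-671-3p was 3.80, 3.68 and 3.79 in CyrKOCdr1as671, 3.58, 3.53 and 3.53 in CyrKO, 3.32, 3.17 and 3.76 in Cdr1as671, and 2.40, 2.68 and 2.49 in WT libraries. All CyrKOCdr1as671 libraries lay above all CyrKO libraries, Cdr1as671 overlapped both, and every mutant library lay above the WT libraries. The departure was -0.68 (SE 0.21, 95% interval -1.14 to -0.22, limma adjusted p = 0.551). For miR-7b-5p over miR-7b-3p it was 1.47 (SE 0.45, limma adjusted p = 0.551).

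No strand ratio passed over all 224 pairs by limma (0% called), where 10 had an unadjusted p under 0.05 and the median departure was 0.01. Leaving out Cdr1as671 library 3 gave 2 calls, of which miR-7a-5p over miR-7a-1-3p was 1, at 1.23 (adjusted p = 0.045). No other fit with a library left out gave a call.

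**Figure D3:**
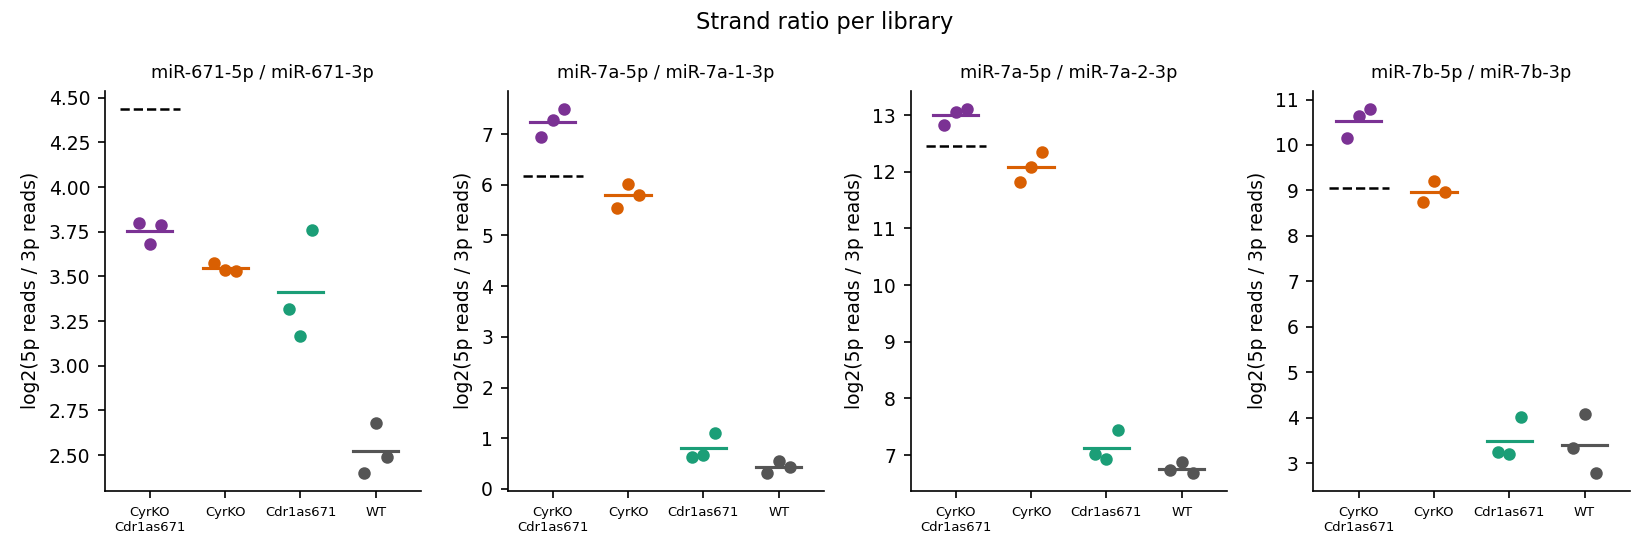
Log2 ratio of 5p to 3p reads for the miR-671 and miR-7 hairpins in the 12 libraries, in the same 4 groups. Points are libraries, solid lines are means of 3 libraries and the dashed line is the sum of both single effects. The double mutant lies below that sum for miR-671 (departure -0.68) and above it for miR-7a-5p over miR-7a-1-3p (1.08), miR-7a-5p over miR-7a-2-3p (0.54) and miR-7b (1.47).

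The other miRNAs that rose with loss of Cyrano in both backgrounds did not pass the test on the departure. miR-409-3p, of the imprinted miR-379/410 cluster at chr12:109743158-109743236, had 73.9, 73.8 and 72.2 CPM in CyrKOCdr1as671, 75.1, 80.8 and 77.7 CPM in CyrKO, 27.9, 31.0 and 22.9 CPM in Cdr1as671, and 24.0, 29.2 and 29.3 CPM in WT libraries. The groups without Cyrano lay above those with it, and within each pair they were close. Loss of Cyrano raised it by 1.54 without the site (SE 0.11, adjusted p = 6.76e-08) and by 1.52 with it (SE 0.11, adjusted p = 7.2e-08), a departure of 0.01 (SE 0.15, 95% interval -0.31 to 0.34).

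miR-411-3p rose by 0.85 without the site and by 1.02 with it, with a departure of -0.17 (SE 0.13, adjusted p = 0.863). miR-379-3p rose by 0.65 without the site (adjusted p = 0.000798) and by 0.89 with it (adjusted p = 1.16e-05), with a departure of -0.25 (SE 0.14, adjusted p = 0.863). The step of miR-379-3p without the site was not called with the offset on GC content, at 0.46 (adjusted p = 0.0834), where its departure was -0.40 (adjusted p = 0.756). That departure was below 0 in all 24 alternatives, at -0.40 to -0.14. Summed, because they share a seed and 20 of 22 bases, miR-379-3p and miR-411-3p departed by -0.19 (SE 0.12, adjusted p = 0.885).

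The listed members of the miR-379/410 cluster centred on no departure. Of 67 listed, 55 were tested and none was called, against 0.145% of all 688. Of these, 28 were above 0 and 27 below, and the median was 0.00, against -0.01 over all 688. The list leaves out miR-666-3p, described below, which lies between the hairpins of miR-411 and miR-300 of the cluster. Loss of Cyrano raised 3 of the 55 without the site, against 0.727% of all 688 miRNAs, and 3 with it, against 0.872% of all, and none fell. Both times these were the 3 members described above, which were chosen for that rise. Others were called in the steps of the site deletion. These were 1 member higher (1.02% of all) and 3 lower (1.31% of all) in CyrKOCdr1as671 relative to CyrKO, and 5 lower (4.22% of all) in Cdr1as671 relative to WT. In the first step, only the 2 miR-7 guides were called without CyrKOCdr1as671 library 3. In the second, no miRNA was called lower with the erythroid miRNAs as a covariate. The most abundant listed strands of the cluster, miR-300-3p and miR-381-3p, departed by -0.05 (SE 0.12) and -0.01 (SE 0.13), and both signs turned in some alternatives.

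Across the 688 miRNAs tested, 1 passed (0.145%), which was miR-671-5p, and 27 had an unadjusted p under 0.05, with 14 above and 13 below 0. The scaling of the libraries itself sets most differences near 0, and with library totals alone the median departure was -0.09. After scaling, the departures of all miRNAs centred on 0, with 340 positive and 348 negative values and the middle range from -0.18 to 0.18. Their median SE was 0.22. With 1 library left out the count was 19 without Cdr1as671 library 3, 1 without Cdr1as671 library 2 and 0 in each other case. The 19 calls comprised miR-671-5p below 0 and 18 above 0, among them both miR-7 guides, miR-101a-3p, miR-32-5p and miR-33-5p. The GC content of these 18 had a median of 36.4%, against 50% over the tested miRNAs with a RefSeq sequence.

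The single steps called more miRNAs than the departure, but their median SE was smaller, at 0.16 in each step against 0.22 for the departure. CyrKOCdr1as671 against CyrKO called 16 (2.33%) and CyrKOCdr1as671 against Cdr1as671 called 5 (0.727%). CyrKO against WT called 7 (1.02%) and Cdr1as671 against WT called 42 (6.1%). Of the miRNAs named above, miR-7a-5p, miR-7b-5p and miR-7a-1-3p passed in the first of these steps, and both guides with miR-379-3p, miR-411-3p and miR-409-3p in the second.

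These counts moved with single libraries. For CyrKOCdr1as671 against CyrKO the count was 26 without CyrKOCdr1as671 library 1, 9 without its library 2, 2 without its library 3, 7 without CyrKO library 1 and 9 without CyrKO library 3. For CyrKOCdr1as671 against Cdr1as671 it was 59 without Cdr1as671 library 3. For Cdr1as671 against WT it was 2, 4 and 119 without Cdr1as671 library 1, 2 or 3, and 2, 21 and 3 without WT library 1, 2 or 3. That count also moved without CyrKO library 2 (20) or 3 (10) or CyrKOCdr1as671 library 1 (23), 2 (15) or 3 (19).

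**Figure D4:**
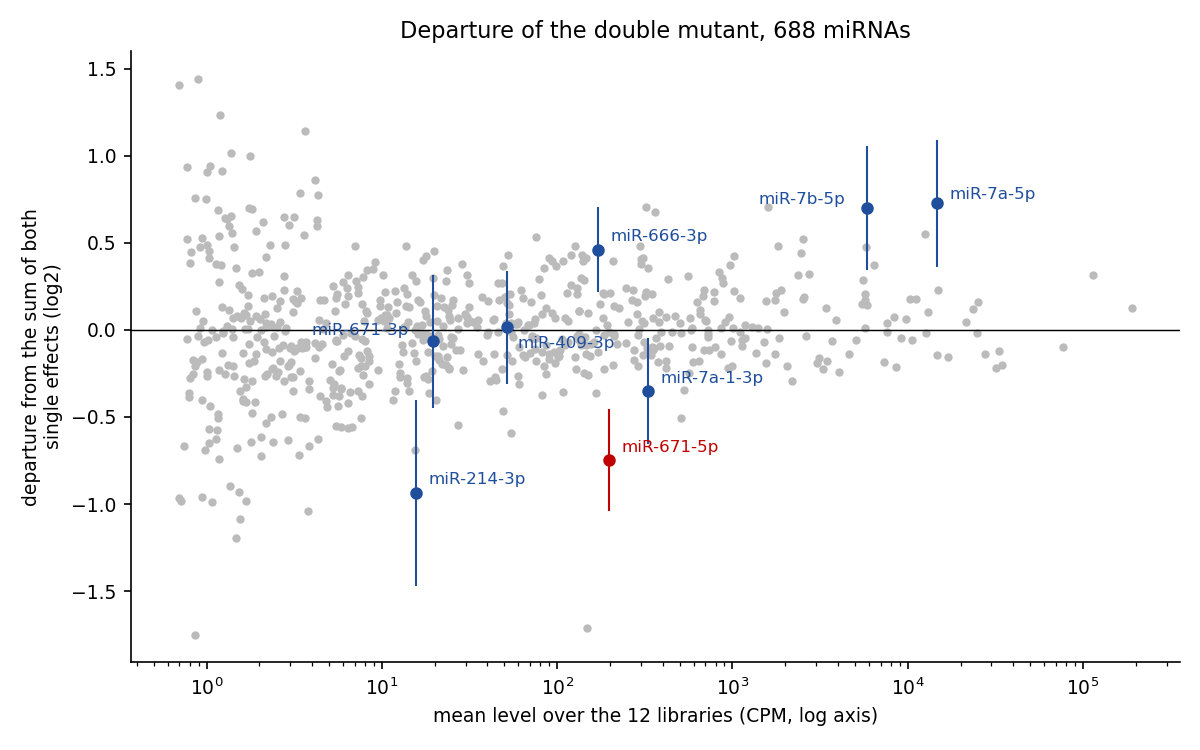
Log2 departure of the double mutant from the sum of both single effects (vertical axis) against the mean level over the 12 libraries (horizontal log axis) for 688 miRNAs. Red marks miR-671-5p, which passed the test, blue marks 7 other miRNAs named in the text, and bars are 95% intervals. The spread is widest below 10 CPM, and miR-671-5p, miR-7a-5p and miR-7b-5p stand near the edge of the range for their level.

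The spread of the departures depended on level. Their median absolute size was 0.26 in 280 miRNAs under 10 CPM, 0.14 in 183 miRNAs of 10 to 100 CPM, 0.14 in 145 of 100 to 1000 CPM and 0.16 in 80 above 1000 CPM. Of 10 miRNAs past a 2-fold departure, 9 were in the lowest class. The other was the muscle-type miR-1a-3p, at -1.71 (SE 1.00), which ran from 67.8 to 630 CPM over the 12 libraries and is named here after its values were seen.

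Of the miRNAs next in order of p, none passed. miR-666-3p, from a hairpin on chromosome 12, had 157, 175 and 169 CPM in CyrKOCdr1as671, 155.0, 156.0 and 153.97 CPM in CyrKO, 166, 171 and 157 CPM in Cdr1as671, and 193, 205 and 197 CPM in WT libraries. The 3 mutant groups were near each other, all below WT. Its departure was 0.46 (SE 0.11, adjusted p = 0.18), with single steps from WT of -0.33 in CyrKO (adjusted p = 0.0744) and -0.31 in Cdr1as671 (adjusted p = 0.0374). The second of these was called in 8 of 23 alternatives. The departure itself was called in 2 of 23, with DESeq2 and without Cdr1as671 library 3.

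miR-298-5p, of the imprinted Gnas region, departed by 0.39 (SE 0.13, adjusted p = 0.719), at 101.2, 104.8 and 100.3 CPM in CyrKOCdr1as671, 101.5, 96.96 and 109.05 CPM in CyrKO, 94.98, 103.96 and 105.3 CPM in Cdr1as671, and 131, 132 and 115 CPM in WT libraries. All mutant libraries lay below all WT libraries. miR-666-3p and miR-298-5p were named for their low p on the departure, a choice that favours such shapes. How many of the 688 tested miRNAs share this shape was not counted. miR-214-3p, from the antisense transcript Dnm3os, departed by -0.94 (SE 0.25, adjusted p = 0.265), at 13.5, 9.50 and 9.75 CPM in CyrKOCdr1as671, 14.4 to 20.9 CPM in CyrKO, 17.3 to 22.6 CPM in Cdr1as671 and 12.3 to 17.9 CPM in WT.

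The remaining miRNAs of low p were miR-1198-5p at -0.36 (SE 0.14) and 4 miRNAs below 10 CPM. These were miR-374c-5p at 1.14 (SE 0.37), miR-6937-3p at -1.75 (SE 0.58), miR-6943-3p at 1.23 (SE 0.45) and miR-511-3p at 0.86 (SE 0.33), with adjusted p from 0.719 to 0.863. miR-374c-5p was also lower in CyrKO than in WT (log2 -1.13, adjusted p = 0.049), a call kept in 12 of 22 alternatives.

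Other miRNAs known to be degraded through extended pairing with a target did not pass the test on the departure. Of 6 listed 4 were tested and none was called, against 0.145% of all 688. Of the 4, 3 were above 0 and 1 below, with a median of 0.12. miR-29b-3p departed by 0.18 (SE 0.18), and by 0.056 to 0.44 with 1 library left out. miR-322-5p departed by 0.36 (SE 0.56), and by 0.069 to 0.79 with 1 library left out. Of 12 miRNAs of the miR-17/92 cluster and its relatives, none was called on the departure, against 0.145% of all 688. Of the 12, 9 were above 0 and 3 below, with a median of 0.13. In Cdr1as671 relative to WT 3 of the 12 fell, against 4.22% of all 688 miRNAs, among them miR-19b-3p (-0.81, adjusted p = 0.042) and miR-106b-5p (-0.63, adjusted p = 0.0106), and neither was called without Cdr1as671 libraries 1 and 2. The cluster summed to 4637 to 6564 CPM in CyrKOCdr1as671, 6864 to 7532 CPM in CyrKO, 3898 to 5526 CPM in Cdr1as671 and 6649 to 7352 CPM in WT libraries.

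No member of the cell type lists was called on the departure, where 0.145% of all 688 miRNAs were called. The medians were 0.53 over the 3 erythroid miRNAs (SE 1.71 to 1.88), 0.13 over 5 neuronal, 0.12 over 4 oligodendrocyte, 0.10 over 6 vessel, 0.03 over 7 immune and -0.11 over 10 choroid plexus miRNAs. Over the 4 listed for cerebellum against hippocampus the median was 0.02, with a range of -1.71 (miR-1a-3p, which did not separate the tissues) to 0.39. Immune miRNAs summed to 2411 to 2575 CPM in CyrKOCdr1as671 and 2828 to 3351 CPM in CyrKO libraries. They summed to 2904 to 3072 CPM in Cdr1as671 and 2620 to 3397 CPM in WT. On these library totals CyrKOCdr1as671 lay below the other groups. With the scaling factors of the test, 0.958 to 0.964 for CyrKOCdr1as671 libraries and 1.04 for WT library 2, it overlapped WT. Choroid plexus miRNAs summed to 7430 to 8610 CPM in CyrKOCdr1as671, 8573 to 10568 CPM in CyrKO, 8185 to 11528 CPM in Cdr1as671 and 8617 to 10174 CPM in WT. 1 of 5 oligodendrocyte and 1 of 8 immune miRNAs were at 0 in a library. The part of these levels in the departures was not tested.

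Combined in the same way, the log2 fold changes in the authors' deposited table of each mutant group against WT gave departures of -0.74 for miR-671-5p, 0.73 for miR-7a-5p, 0.70 for miR-7b-5p and -0.35 for miR-7a-1-3p. The 3 tables share their WT libraries. p-values here rest on the spread between replicates within groups. It was estimated over the 4 groups together, with information shared across miRNAs, and not for each group of 3 replicates.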

How the data were processed

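Groups were taken from the labels, and columns of the 3 deposited cerebellum tables were matched to libraries by name. The labels' protocols give Trizol extraction, 5 ug of total RNA per library and a size selection of 18 to 32 nt. RNA integrity numbers were 8.5 to 9.5. The submitters' processing notes name cutadapt and DESeq2 1.10. The sources used here do not give the mapping method, miRNA annotation or genome build, so coordinates are those of RefSeq and not of the counts. The authors deposited whole-number counts of reads per miRNA. Their normalised signal, deposited beside the counts, equals each count over 1 factor per library and was used only to check them. Log2 fold changes, deposited by the authors, were used where so named. The test score and p-value columns, which are the authors' own per the file headers, were not used for calls. WT counts were identical in the 3 tables and entered once.

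Counts of the 12 libraries were fitted together in R 4.3.3 with edgeR 4.0.16, with 1 mean per group, filterByExpr (minimum count 10, minimum total 15), TMM scaling and the robust quasi-likelihood F-test. Benjamini-Hochberg adjustment ran over all 688 tested miRNAs, and calls are adjusted p under 0.05. The SE of a log2 value is its size over the square root of F. CPM uses library totals alone. Strand ratios, log2 of 5p over 3p reads with a pseudocount of 0.5 read, were compared by limma 3.58.1 (trend and robust) for pairs with a mean of 10 reads on each strand. Replicate numbers entered only as an alternative. The procedure was tested on simulated data, with changes put in the double mutant only. No simulated library was shifted by GC content or in erythroid miRNAs, and counts for strand ratios varied by counting error alone. It therefore does not show how the tests behave with such shifts, or the ratios with the spread between replicates seen here. Alternatives were another scaling, filter, tool, covariate or set of libraries.

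Members and lists were chosen with earlier results of these data known. Named were all miR-7 and miR-671 strands, calls on the departure with the 10 lowest p among the rest, the 3 other miRNAs that rose in CyrKO in those results, and up to 2 abundant members per pathway list.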

Additional observations from a re-analysis of the deposited data

Results flagged for a closer look

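miR-671-5p was picked out because the effect of the Cdr1as site deletion differed between mice without and with Cyrano, by -0.75 on the log2 scale in a test of the difference itself (adjusted p = 0.043, edgeR). The site deletion changed it by 0.06 without Cyrano and by 0.81 with Cyrano. The call was lost in 10 of the 12 fits with a library left out and with the replicate block (adjusted p = 0.101).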

How the results depend on the processing

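The count of miRNAs called on the departure, 1, was 4 without a filter on low counts and with DESeq2, and 0 with a minimum mean of 10 CPM (17 at unadjusted p under 0.05), with limma-voom (30), with the replicate block (28) and with the offset on GC content (26). It was 0 to 19 with 1 library left out. The departure of miR-671-5p was not called with the replicate block (adjusted p = 0.101), limma-voom (0.0502), a minimum mean of 10 CPM (0.0569) or the GC offset (0.0797), and the miR-7 guides were called with DESeq2 (0.0288 for miR-7a-5p, 0.0299 for miR-7b-5p) and without a filter (0.00494 each). For Cdr1as671 against WT, 42 became 73 with DESeq2, 19 with the replicate block, 66 with the GC offset, 1 with the erythroid covariate and 1 without Cdr1as671 libraries 1 and 2, and 2 to 119 with 1 library left out. For CyrKOCdr1as671 against CyrKO, 16 became 25 with library totals alone, 26 without a filter, 35 with DESeq2 and 27 with the GC offset, and 2 to 26 with 1 library left out. For CyrKOCdr1as671 against Cdr1as671, 5 became 8 with library totals alone and 5 to 59 with 1 library left out. CyrKO against WT gave 6 to 8 calls and strand ratios 0 to 2 with 1 library left out. The causes were not tested. Departures that turned sign were near 0: miR-671-3p (0.045 with the erythroid covariate, 0.19 without Cdr1as671 libraries 1 and 2, -0.11 to 0.075 with 1 library left out), miR-409-3p (-0.075 with library totals alone, -4.34 CPM on the linear scale, -0.0030 to 0.14 with 1 library left out), miR-29b-3p (-0.16) and miR-106b-5p (-0.056) without Cdr1as671 libraries 1 and 2, miR-300-3p (-0.10 to 0.053 with 1 library left out) and miR-381-3p (0.0094 with RLE, 0.0093 with DESeq2, 0.0011 without a filter, 0.029 at 10 CPM, 0.045 with the erythroid covariate, 0.070 without Cdr1as671 libraries 1 and 2, -0.039 to 0.12 with 1 library left out). Of 618 tested values for single miRNAs and strand pairs, 561 kept their sign and call. Library totals alone moved the median departure to -0.09. Nothing in the labels says that a replicate number pairs samples, same-numbered libraries of different groups correlated in their deviations at -0.56 to 0.63 (10 of 18 pairs above 0.1, with 0.63, 0.47 and 0.47 between CyrKOCdr1as671 and WT), and 8 of 12 libraries correlated best with their own number. With the replicate block CyrKO against WT called 6, CyrKOCdr1as671 against CyrKO 20 and CyrKOCdr1as671 against Cdr1as671 5.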
